A study of Mus musculus with 4 samples.

Results

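The genes described here are 8 complement genes of the mouse, in a study that profiled accessible chromatin in macrophages with and without Ezh2. C1qa, C1qb and C1qc encode the chains of C1q, C3 the central component, Cfb and Cfp the alternative pathway proteins factor B and properdin, and C3ar1 and C5ar1 the receptors for the C3a and C5a fragments. The genes were given by name, and 24 accessible regions inside them or within 50 kb of them belonged to them, out of 91858 regions in all and 80467 that could be assigned to a protein-coding gene. Accessibility was measured by ATAC-seq, which marks open DNA by the insertions of a transposase. Knockout (KO) macrophages came from mice with the genotype Ezh2 fl/fl and LysM-Cre +/-, in which Cre is made from the lysozyme promoter of myeloid cells, and wild-type (WT) macrophages came from littermate controls. Both were grown from bone marrow for 7 to 10 days with L929 cell medium and then kept for 24 hours in culture medium taken from Hepa1-6, a liver cancer line of the mouse. Macrophages without that exposure were not analysed here. Each genotype had 2 libraries, and the labels do not say whether they came from separate mice or cultures, so that the spread given here is the spread between these libraries and may be technical.

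Complement is a cascade of plasma proteins that tag cells and particles for removal. C1q starts the classical pathway when it binds antibody or dying cells, C3 is split to leave an opsonin on the target, and factor B and properdin build and stabilise the enzyme that splits more C3 in the alternative pathway. The fragments C3a and C5a attract and activate myeloid cells through C3ar1 and C5ar1. The liver makes most circulating complement, whereas C1q and properdin come largely from macrophages and other myeloid cells. Ezh2 is the catalytic subunit of Polycomb repressive complex 2, which methylates histone H3 on lysine 27 at silent genes.

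The peak lists held 67055 and 71111 peaks in KO and 69210 and 72887 in WT, the longer list being replicate 2 in each genotype. Sequencing depth is unknown, as the lists hold no read counts. Among macrophage marker genes, 10 of 10 had a region called in all 4 libraries within 1 kb of an annotated gene end, whichever gene it was assigned to, where 54.6% of 21900 protein-coding genes did. The count was 2 of 10 for hepatocyte, 2 of 10 for neutrophil, 4 of 8 for dendritic cell, 1 of 7 for B cell, 3 of 8 for T and NK cell, 1 of 7 for fibroblast and 3 of 6 for erythroid markers. Ezh2 itself kept a region at its higher-coordinate end in all 4 libraries. A region inside Ezh2, 2221 bp from its nearer end, measured 106 and 182 bp in KO and 403 and 372 bp in WT. Ranked by enrichment within each library's own list, it stood at percentiles 24.9 and 23.4 in KO and 73.7 and 92.7 in WT. The end region measured 1350 and 1351 bp in KO and 1378 and 1408 bp in WT. Its percentiles went the other way, 80.2 and 73.9 in KO and 71.4 and 67.9 in WT. Both KO widths fell below both WT widths in 16.8% of all assigned regions called in all 4 libraries. Both KO percentiles fell below in 17.9% and stood above in 17.0%. In the other such Ezh2 regions the widths and the percentiles overlapped. Widths were 273 and 267 bp in KO and 152 and 382 bp in WT at 47562290, and 744 and 776 bp in KO and 772 and 830 bp in WT at 47621041.

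Peaks were called at each of the complement genes in both genotypes. Of the 24 regions, 18 were called in all 4 libraries, which is 75% where the share over all assigned regions was 59.5%. A further 2 were called in 3 libraries, 1 in 2 and 3 in a single library (21.7% of all assigned regions). Counts of regions called were 20 and 23 in KO and 18 and 22 in WT, so the genotypes overlapped and replicate 2, with the longer list, was higher in each. None was called in both KO libraries and no WT library (1.44% of all assigned regions), and none in both WT libraries and no KO library (1.94%). At such shares a count of 0 among 24 regions is not a result about these genes. The single-library calls were 2 in KO replicate 2, near C1qb and inside C5ar1, and 1 in WT replicate 2, at the lower-coordinate end of C3ar1. With the lists trimmed to equal length by fold, 17 of 22 regions were called in all 4 libraries. The share over all assigned regions was not computed for the trimmed lists. In bulk cells a lower signal in every cell and an open site in fewer cells cannot be told apart.

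In all 85 regions lay within 50 kb of one of the genes, and the 24 are those with no nearer protein-coding gene, so that their closeness follows from the assignment. Of the 24, 15 overlapped their gene and the farthest lay 8317 bp from it. All 8 genes had a region called in all 4 libraries within 1 kb of an annotated end, whichever gene it was assigned to. Of all protein-coding genes 54.6% did. In 7 of the 8 such a region was assigned to the gene itself, as in 48.5% of all protein-coding genes. The exception was Cfb, whose nearest such region lay inside the neighbouring gene Nelfe.

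RefSeq gives a promoter window, from 250 bases before to 50 after an annotated transcript start, for 6 of the 8 genes on the GRCm38.p6 assembly, all on the minus strand. Each of the 6 windows was overlapped by a peak in all 4 libraries, as were 48.8% of 21263 windows of protein-coding genes. The peaks covered every base of the windows of C1qb, C1qc and Cfp in all 4 libraries. At C3ar1 they covered 100% and 79% of the window in KO and 100% and 96.7% in WT, and at C3 97.7% and 100% in KO and 93.7% and 95.7% in WT. The windows of C1qc, C3, C3ar1 and C5ar1 follow, being the 4 that held a searched motif, and capitals mark the motif matches. They lie on the minus strand at chr4:136892865-136893164 (C1qc), chr17:57228087-57228386 (C3), chr6:122856108-122856407 (C3ar1) and chr7:16259289-16259588 (C5ar1).
C1qc: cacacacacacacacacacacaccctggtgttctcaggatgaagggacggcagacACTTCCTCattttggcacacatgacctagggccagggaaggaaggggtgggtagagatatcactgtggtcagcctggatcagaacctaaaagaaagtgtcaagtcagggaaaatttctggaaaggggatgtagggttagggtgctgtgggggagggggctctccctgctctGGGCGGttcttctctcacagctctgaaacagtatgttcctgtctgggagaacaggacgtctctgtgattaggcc
C3: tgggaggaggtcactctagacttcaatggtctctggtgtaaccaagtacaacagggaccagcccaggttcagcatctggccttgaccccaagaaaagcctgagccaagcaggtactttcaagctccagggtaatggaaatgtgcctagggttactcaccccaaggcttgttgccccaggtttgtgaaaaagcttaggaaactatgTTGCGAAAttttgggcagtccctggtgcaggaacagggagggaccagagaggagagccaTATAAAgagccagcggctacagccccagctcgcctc
C3ar1: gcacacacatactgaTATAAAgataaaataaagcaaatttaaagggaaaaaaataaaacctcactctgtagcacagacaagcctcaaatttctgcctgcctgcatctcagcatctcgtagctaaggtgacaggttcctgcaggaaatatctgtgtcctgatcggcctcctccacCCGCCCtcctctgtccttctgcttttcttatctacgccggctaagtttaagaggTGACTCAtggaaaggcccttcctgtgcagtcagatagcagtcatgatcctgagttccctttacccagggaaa
C5ar1: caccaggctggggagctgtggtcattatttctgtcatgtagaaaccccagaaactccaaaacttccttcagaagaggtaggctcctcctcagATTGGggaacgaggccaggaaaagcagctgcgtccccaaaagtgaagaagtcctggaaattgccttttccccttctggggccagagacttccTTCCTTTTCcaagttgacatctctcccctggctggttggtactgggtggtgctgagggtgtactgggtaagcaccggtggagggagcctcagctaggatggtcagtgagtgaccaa

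Motifs were read on both strands, and positions count from the transcript start, with the last base before it as -1. The C3 window held a C/EBP match (TTGCNNAA) from -45, and C/EBP factors are known to drive acute-phase genes. This match was in 10.2% of all windows. A TATA box (TATAAA) began at 15 in C3 and at -235 in C3ar1, and 12.6% of all windows held one. The C3ar1 window held an AP-1 match (TGANTCA) from -22 (6.99% of all windows). A PU.1 match (GAGGAAGT), named after the factor that specifies myeloid cells, began at -195 in C1qc on the reverse strand (3.13%). The C5ar1 window held an interferon response match (GAAANNGAA) from -66, reversed (8.15%), and a reversed CCAAT box (CCAAT) from -158 (38.2%). A GC box (GGGCGG) was present in C1qc and, reversed, in C3ar1 (46.2%). The letters of a partial MAF recognition element (TGCTGAC, 4.3%), of NF-kB (GGGANTTTC, 1.08%) and of an E-box (CACGTG, 7.84%) were in none of the 6 windows, and the C1qb and Cfp windows held none of the 10 motifs. No 2 matches in the member windows overlapped. These are matches of letters, not binding sites.

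**Figure D1:**
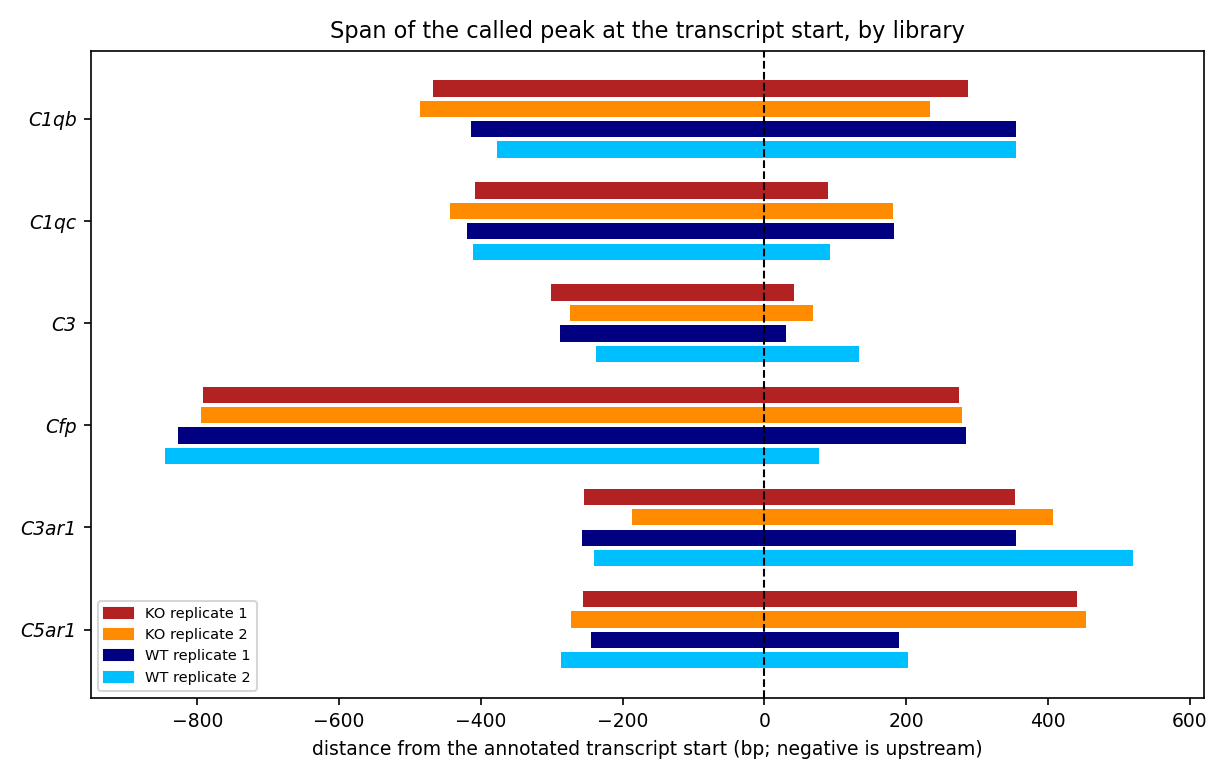
Span of the peak at the annotated transcript start in each library, in bp from the start with negative values upstream, for the 6 genes with a RefSeq promoter window; each bar is 1 peak of 1 library. At C5ar1 the KO peaks ran 441 and 454 bp downstream and the WT peaks 190 and 202 bp, while the upstream edges of the genotypes overlapped.

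The C1q genes lie side by side over 18.7 kb of chromosome 4, and each carried a region at its higher-coordinate end in every library. For C1qb and C1qc that end holds the transcript start. The C1qb region (136885845 to 136886686) had peaks of 755 and 720 bp in KO and 770 and 734 bp in WT. Its deposited fold values, the enrichment over local background averaged along the peak, were 6.81 and 6.36 in KO and 6.77 and 6.01 in WT. Ranked within each library's own list, these fell at percentiles 86.2 and 83.7 in KO and 88.4 and 81.8 in WT. All 3 measures overlapped between the genotypes, and KO peaks averaged 738 ± 24.7 bp and WT peaks 752 ± 25.5 bp (SD, n = 2 each).

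The C1qb peak was nonetheless placed differently around the start. KO peaks reached 467 and 486 bp upstream and WT peaks 414 and 378 bp, and KO peaks reached 287 and 233 bp downstream and WT peaks 355 bp in both libraries. Neither edge overlapped between genotypes. Over all promoter windows with a peak in every library, both KO peaks reached farther upstream in 16.0% and less far downstream in 13.7%, so neither order was rare.

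At C1qc the start region (136892731 to 136893357) was 499 and 626 bp wide in KO and 603 and 505 bp in WT, with percentiles of 89.2 and 78.2 in KO and 80.0 and 84.8 in WT. A second region 948 bp from its higher-coordinate end, between C1qc and C1qa, ranked lowest of the shared member regions in every library, at percentiles 2.02 and 1.98 in KO and 3.66 and 1.98 in WT. Its widths were 466 and 398 bp in KO and 488 and 461 bp in WT. Neither region separated the genotypes.

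C1qa had a region across its higher-coordinate end (136898640 to 136899251) with 455 and 418 bp in KO and 567 and 245 bp in WT. The WT libraries differed more from each other than from KO, with percentiles of 62.1 and 57.9 in KO and 41.6 and 78.2 in WT. A narrow region 8317 bp away was called in 1 library of each genotype, with 117 bp in KO replicate 2 and 145 bp in WT replicate 2.

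Below C1qb lay 3 more regions, at percentile 50.4 or lower in every library that called them. The one 885 bp from the gene (136878602 to 136879241) measured 303 and 487 bp in KO and 293 and 144 bp in WT, and its percentiles were 23.6 and 14.0 in KO and 36.0 and 50.4 in WT. KO was thus wider and of lower rank without overlap, by 10 bp between the nearest libraries. As the fold is an average along the same peak, the 2 measures are not independent. Whether the wider calls took in weaker flanks was not tested. The region 2402 bp away was called in both KO libraries, with 167 and 178 bp, and in WT replicate 2, with 588 bp.

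**Figure D2:**
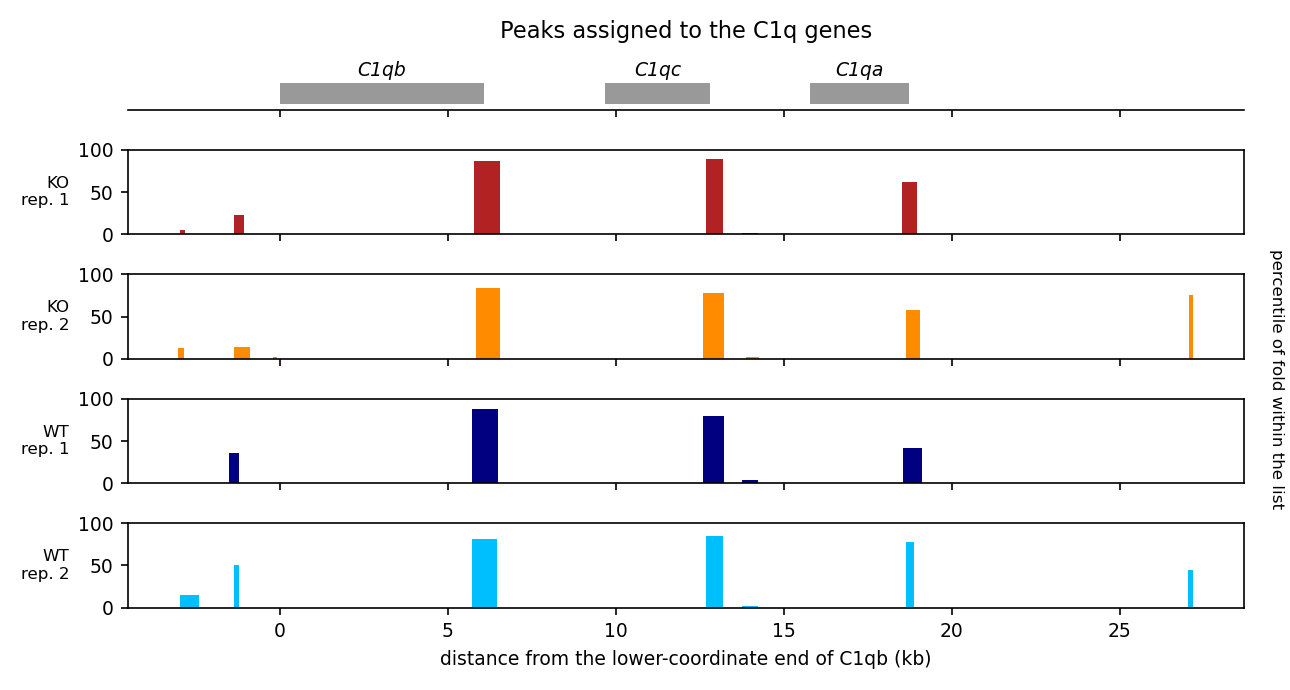
Peaks assigned to C1qb, C1qc and C1qa in each library, by distance in kb from the lower-coordinate end of C1qb; bar width is the peak width, and bar height is the percentile of fold within that library's list. The regions at the higher-coordinate ends of C1qb and C1qc stood at percentile 78.2 or more in every library.

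C3, on chromosome 17, had 2 regions over its 24170 bp, both called everywhere. At the start (57228002 to 57228437) widths were 344 and 344 bp in KO and 320 and 372 bp in WT, and percentiles were 62.7 and 69.5 in KO and 62.1 and 49.2 in WT. The widths overlapped, and the percentiles were higher in both KO libraries, by less than a percentile between the nearest libraries. The region inside the gene, 8060 bp from the start (57219173 to 57220076), had peaks of 202 and 176 bp in KO and 904 and 207 bp in WT. The broad call of WT replicate 1 set the genotype difference: the log2 width difference was -1.19 ± 0.75 (SE) over all libraries and -0.08 without WT replicate 1, and the difference did not pass the test (limma, adjusted p = 0.971). Its fold values were 6.70 and 6.52 in KO and 4.53 and 5.53 in WT, and its percentiles 85.2 and 85.5 in KO and 50.3 and 74.6 in WT, the lowest being that of the broad peak.

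Cfb was the only gene of the 8 with no assigned region in all 4 libraries. Its single region (chromosome 17, 34858284 to 34858912), inside the gene and 1910 bp from its lower-coordinate end, was called with 132 and 195 bp in KO and 625 bp in WT replicate 2, and not in WT replicate 1. Its fold was 3.68 and 4.22 in KO and 3.39 in WT replicate 2. The nearest region shared by all libraries lay in Nelfe, 265 bp from Cfb, with 155 and 148 bp in KO and 134 and 275 bp in WT. No region was called within 1 kb of the higher-coordinate end of Cfb, beyond which lies C2, the gene for its classical pathway counterpart.

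Cfp, on the X chromosome, had the widest region of the 24. At its start (20931271 to 20932401) peaks spanned 1068 and 1075 bp in KO and 1112 and 924 bp in WT, with percentiles of 53.9 and 62.3 in KO and 60.0 and 63.2 in WT. WT replicate 2 reached 77 bp downstream of the start, where the KO peaks reached 275 and 279 bp and WT replicate 1 reached 284 bp. Upstream, KO peaks reached 792 and 795 bp and WT peaks 827 and 846 bp, without overlap. Both KO peaks reached less far upstream in 14.2% of all promoter windows with a peak in every library. The region 1216 bp inside measured 227 and 325 bp in KO and 109 and 359 bp in WT. Beyond the other end, 1612 bp from the gene (20923447 to 20923842), widths were 329 and 325 bp in KO and 330 and 396 bp in WT, a separation of 1 bp between the nearest libraries (log2 difference -0.13, limma, adjusted p = 1.0).

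C3ar1, on chromosome 6, carried the highest-ranking region of the set. It lay 6443 bp beyond the start side of the gene (122862600 to 122863395) and had fold values of 8.25 and 9.60 in KO and 9.93 and 7.33 in WT. These stood at percentiles 95.7 and 99.3 in KO and 99.7 and 94.2 in WT, and widths were 704 and 550 bp in KO and 478 and 770 bp in WT, both overlapping. The start region (122855637 to 122856414) was also high, at percentiles 89.6 and 87.4 in KO and 85.9 and 88.9 in WT. Its widths of 610 and 595 bp in KO were below the 613 and 761 bp in WT, by 3 bp between the nearest libraries (log2 difference -0.17, limma, adjusted p = 0.973). A region inside C3ar1, 3011 bp from the start, measured 350 and 332 bp in KO and 358 and 265 bp in WT.

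**Figure D3:**
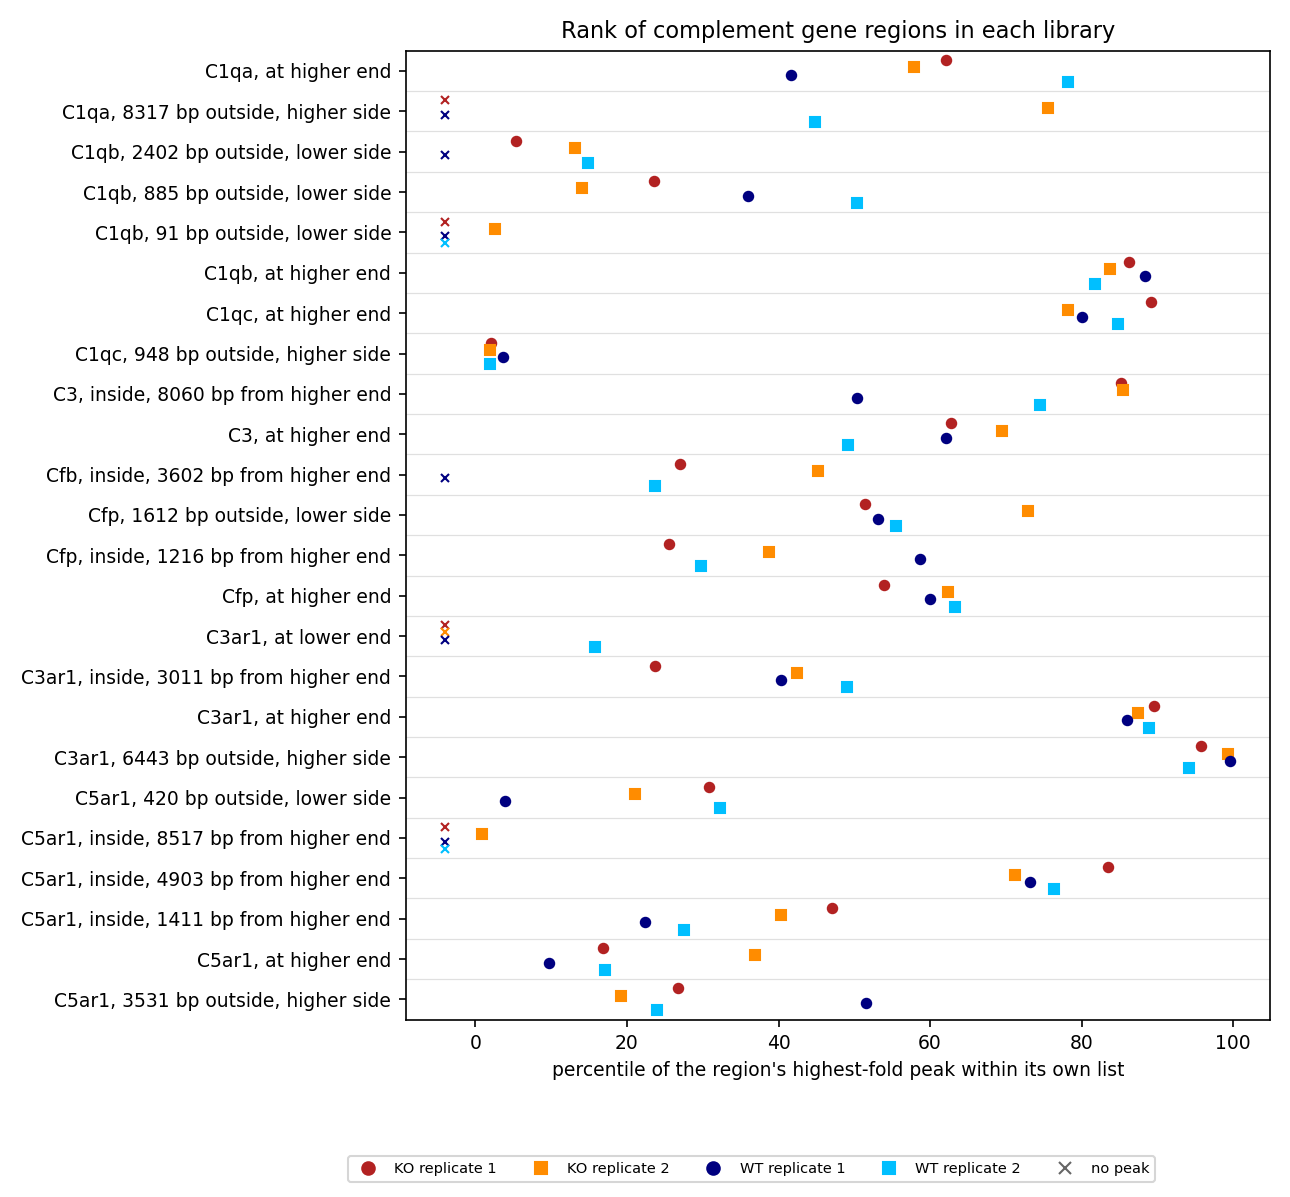
Percentile of each region's highest-fold peak within its own list, for the 24 regions of the 8 genes in the 4 libraries, with crosses where a library called no peak; labels give the position relative to the gene's lower- or higher-coordinate end. The region 6443 bp from C3ar1 stood at percentile 94.2 or more in every library, and the genotypes overlapped in 14 of the 18 regions called in all 4 libraries.

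C5ar1 had 6 regions, the highest number of the 8 genes, and all libraries called 5 of them. The region at its start (chromosome 7, 16258884 to 16259625) had the widest gap in width between the genotypes, 208 bp between the nearest libraries. Peaks were 698 and 728 bp in KO and 436 and 490 bp in WT, with means of 713 ± 21.2 and 463 ± 38.2 bp (SD, n = 2 each). The KO peaks were thus 1.56 times as wide (log2 difference 0.64 ± 0.15, SE). In a limma fit over all 53062 shared regions this had an unadjusted p of 0.00731 and an adjusted p of 0.710, so it did not pass 0.05 after adjustment.

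The extra width lay on the gene side of the C5ar1 start. RefSeq places that start at 16259338, 202 bp inside the outermost annotated end. KO peaks ran 441 and 454 bp downstream of it and WT peaks 190 and 202 bp, whereas they ran 256 and 273 bp upstream in KO and 245 and 287 bp in WT. Both KO peaks reached farther downstream in 17.0% of all promoter windows with a peak in every library, so the order of the edges alone was not unusual. The printed window ends 50 bases after the start and does not hold the stretch by which the genotypes differed. The start region itself was of low rank, at percentiles 16.9 and 36.8 in KO and 9.72 and 17.1 in WT, which overlapped between the genotypes. Its fold values were 3.35 and 3.89 in KO and 3.10 and 3.17 in WT. The folds did not overlap, but they come from separately called lists.

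The next C5ar1 region, 1411 bp from the higher-coordinate end (16257884 to 16258129), had overlapping widths of 221 and 209 bp in KO and 202 and 236 bp in WT. Its fold values were 4.43 and 4.02 in KO and 3.52 and 3.52 in WT, and its percentiles 47.1 and 40.4 in KO and 22.4 and 27.6 in WT. The ranks did not overlap between the genotypes. The strongest C5ar1 region lay 4903 bp inside the gene (16254211 to 16254637), at percentiles 83.5 and 71.2 in KO and 73.2 and 76.3 in WT, and measured 399 and 408 bp in KO and 422 and 352 bp in WT. Near the lower-coordinate end, 420 bp outside (16246055 to 16246323), percentiles were 30.9 and 21.1 in KO and 3.96 and 32.3 in WT. Beyond the start, at 3531 bp, they were 26.7 and 19.2 in KO and 51.6 and 23.9 in WT. Both outer regions overlapped between genotypes.

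**Figure D4:**
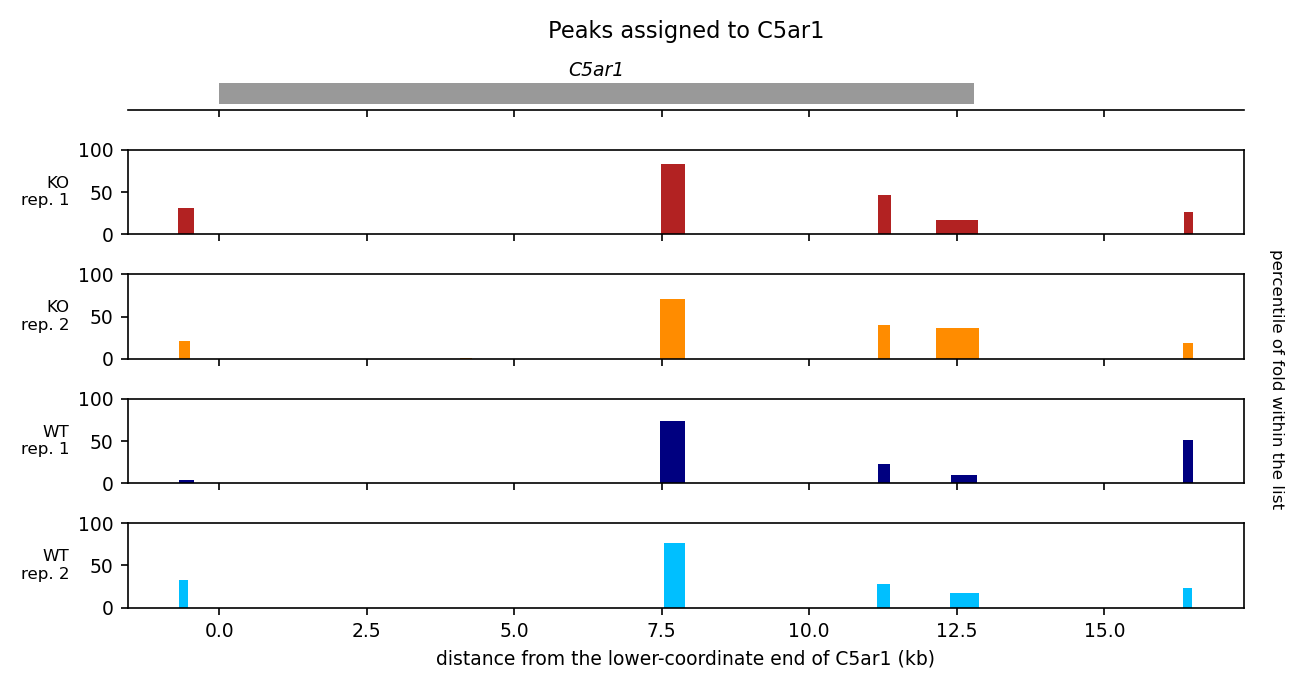
Peaks assigned to C5ar1 in each library, by distance in kb from its lower-coordinate end; bar width is the peak width, and bar height is the percentile of fold within that library's list. At the start region, at the higher-coordinate end of the gene, KO peaks measured 698 and 728 bp and WT peaks 436 and 490 bp.

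The 18 shared regions were also summarised as a group. Median widths were 375 and 403 bp in KO and 429 and 366 bp in WT, where those over all shared regions were 365 and 401 bp in KO and 377 and 395 bp in WT. Median percentiles were 52.7 and 60.1 in KO and 52.3 and 53.0 in WT, beside 59.8 and 62.0 in KO and 60.7 and 62.7 in WT over all shared regions. The median log2 width difference was 0.04, against 0.01 over all shared regions, and 11 of the 18 estimates were positive. No member region passed an adjusted p of 0.05 in limma, nor did any of the 53062 (0% in each direction). In simulated data, 0 of 100 planted changes of 1 in log2 width passed this adjustment, and 30 of 100 planted changes of 3 did. The count of 0 therefore does not show that widths were alike. At an unadjusted p under 0.05, 1 of the 18 was wider in KO and none narrower, where 2.55% and 2.65% of all shared regions were. Adjusted p over the 18 ran from 0.710 to 1.0.

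Separation without overlap was no more frequent than elsewhere in either direction, and 18 regions are too few to compare shares closely. Both KO widths exceeded both WT widths in 2 of 18 regions (16.5% of all shared assigned regions), at C5ar1 and C1qb. Both fell below in 3 regions (16.8%), at C3, C3ar1 and Cfp. Both KO percentiles stood above both WT percentiles in 3 regions (17.0%), at the start and inside C3 and inside C5ar1, and below in 1 (17.9%), near C1qb. A permutation of 2 against 2 libraries cannot give an exact two-sided p below 0.333, and none was run. Ranks in lists of unequal length are descriptions and show no change in accessibility.

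**Figure D5:**
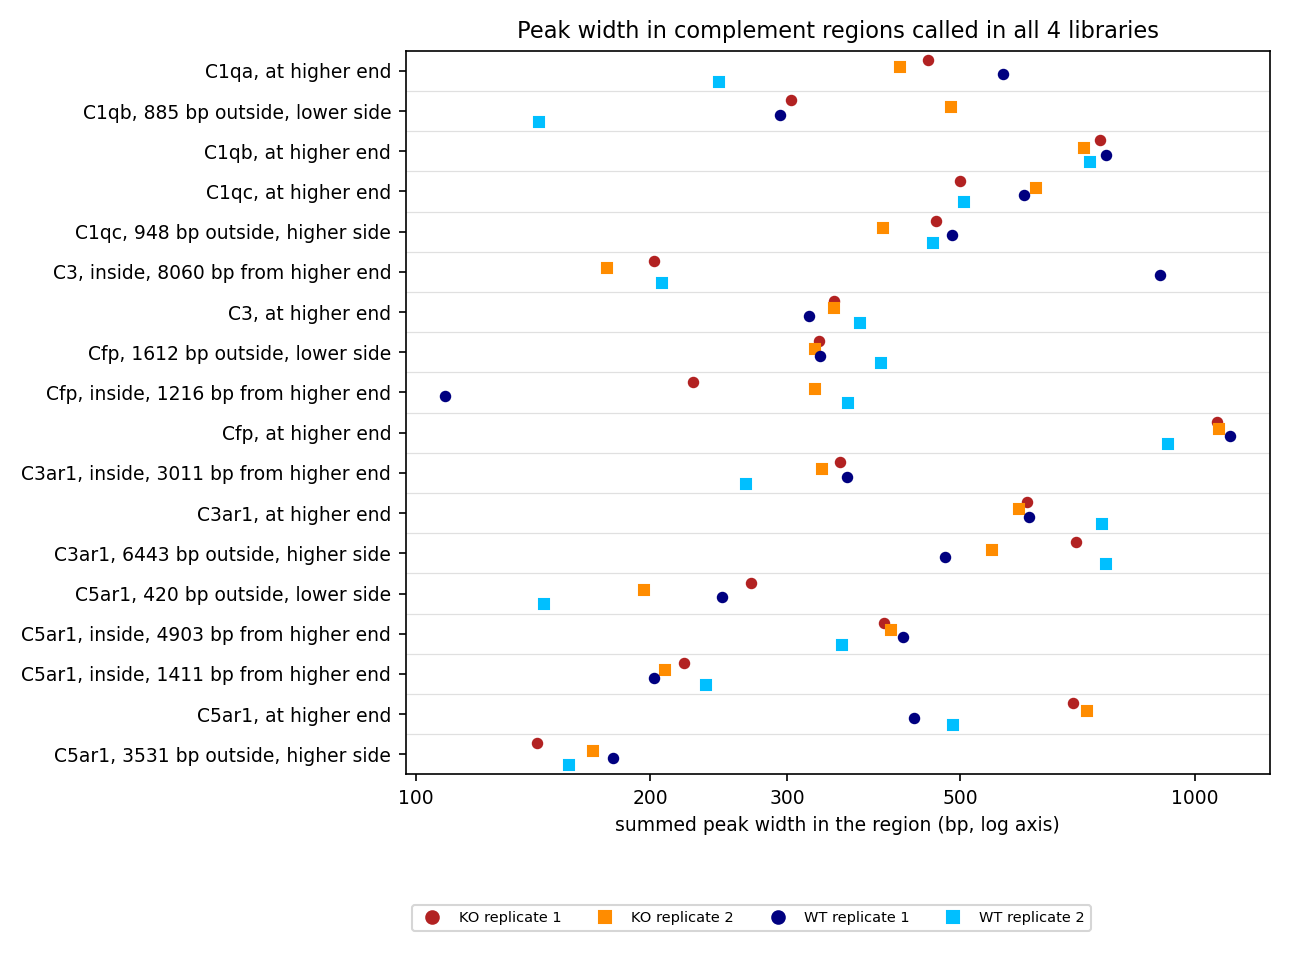
Summed peak width in bp, on a log axis, for the 18 regions called in all 4 libraries; each point is 1 library. The KO points lie apart from the WT points by 208 bp at the C5ar1 start, and by at most 10 bp at the other 4 regions without overlap.

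Peak calls varied among the other complement genes. Of 38 further genes of the cascade, its regulators and receptors, 18 had a shared region within 1 kb of an end (47.4%), whichever gene the region was assigned to, where 54.6% of all protein-coding genes did. All 4 libraries called 81 of their 120 regions (67.5%), where the share over all assigned regions was 59.5%. The share with such an end region was 4 of 12 for the classical and lectin pathways, 3 of 4 for the alternative pathway, 2 of 7 for the terminal components, 5 of 9 for the regulators and 5 of 7 for the other receptors, with Masp1 counted in 2 groups. The receptors with one included the integrin genes Itgam, Itgax and Itgb2, which form complement receptors. No region was assigned to Mbl1, encoding a mannose-binding lectin, to C7, C8a and C8b of the membrane attack complex, or to Vtn, encoding vitronectin. Vtn nevertheless had a shared region within 1 kb of an end, which belonged to a neighbouring gene, and is among the 18. In the width fit none of the 81 passed after adjustment, and 2 were wider and 3 narrower in KO at an unadjusted p under 0.05, where 2.55% and 2.65% of all shared regions were.

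Genotype-only regions occurred at 5 of these 38 genes. Both KO libraries and no WT library called 4 of the 120 regions, where the share over all assigned regions was 1.44%, and both WT libraries and no KO library called 1, where it was 1.94%. The KO-only regions lay 730 bp from Cd46, a complement regulator (102 and 151 bp), 27229 bp from Mbl2, another mannose-binding lectin (132 and 133 bp), inside Hc, which encodes C5 (262 and 322 bp), and 1157 bp from Cd93, once described as a C1q receptor (126 and 355 bp). Their folds were 4.79 and 4.41 at Cd46, 4.56 and 4.34 at Mbl2, 3.68 and 3.07 at Hc and 3.67 and 2.75 at Cd93. The WT-only region lay inside C5ar2, the second C5a receptor gene and neighbour of C5ar1 (chromosome 7, 16241894 to 16242309). It measured 392 and 413 bp, with folds of 2.76 and 2.41 at percentiles 2.12 and 0.583. Within 50 kb of the C1q genes, a KO-only region of 128 bp, 25816 bp from C1qa, was nearest to Epha8, an ephrin receptor gene.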

How the data were processed

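ATAC-seq peak lists of 4 libraries, 2 KO and 2 WT, were analysed, each placed in its group by its title. Per the submitters' processing notes, reads were trimmed with fastp, aligned to mm10 with Bowtie2, and peaks were called with MACS2; for tool versions, duplicate removal, the transposase shift and the filter on the peaks the sources used here give nothing. The lists were deposited per library, without pooling. In the broad peak layout of the deposited files the fold (column 7, a ratio) is the enrichment over local background, and the deposited −log10 p and −log10 q values and the score derived from q come from the peak caller; these are the authors' values. Read length was 150 bp, paired.

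Peaks were merged into regions wherever they overlapped by at least 1 bp. A region was assigned to the protein-coding gene (RefSeq, GRCm38.p6, which is mm10) whose body was nearest, at up to 50 kb, with ties broken by the nearest gene end. RefSeq here gave gene spans and promoter windows but no exons. Percentiles rank the highest-fold peak of a region within its own list. Widths are summed peak lengths per region and library. Regions called in all 4 libraries were fitted with limma 3.58.1 in R 4.3.3, on log2 width minus the library median, with Benjamini-Hochberg adjustment over 53062 regions, after the fit was tested on simulated data. The remaining regions have no width in some library and were not fitted. Library medians differed by -0.01 (log2, KO minus WT). Without counts no interval on depth could be given.

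The members, gene lists and named-region rule were chosen with earlier results of these data known. By that rule, values were given for member regions within 1 kb of a gene end, regions of 1 genotype only, shared regions whose widths did not overlap and each gene's highest-ranking region, and for other complement genes with a region of 1 genotype only or none. The remaining member regions were added after their values were seen, as were the receptor integrins. Alternatives covered peak thresholds, list length, overlap, merging, assignment, width measure, centring, the replicate block and each library left out. Sequences are RefSeq's.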

Additional observations from a re-analysis of the deposited data

How the results depend on the processing

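Of 24 member regions, 18 were called in all 4 libraries. That became 11 of 19 with the weakest 25% of each list removed and 8 of 14 with the weakest 50% removed. It became 14 of 24 when a library's peaks had to cover at least 50% of the region. It was 59 of 85 when any region within 50 kb of a member was taken, whichever gene was nearest. Leaving out a library in turn gave 18 to 20. The shares over all assigned regions, such as 59.5% called in all 4 libraries, were computed for the main setting only. The member counts under the alternatives therefore cannot be set against a share. No member region was KO-only or WT-only over all libraries. With the weakest 25% removed there was 1 KO-only region, at Cfb, and 1 WT-only region, near C1qb. Both come from the cut itself. The Cfb peak of WT replicate 2 stood at percentile 23.7. The C1qb region, 885 bp from the gene, was called in all 4 libraries before the cut and stood at 23.6 and 14.0 in KO. With any region within 50 kb there was 1 KO-only and 1 WT-only region. Leaving out a library gave 0 to 2 KO-only and 0 to 1 WT-only regions. The 2 KO-only regions were near C1qb and inside C5ar1 without KO replicate 1, and at Cfb and near C1qb without WT replicate 2. The WT-only region without WT replicate 1 was at C3ar1. Fewer libraries make such calls easier, by construction. Ranking by −log10 q in place of fold gave 7 of 18 regions whose ranks did not overlap, in place of 4. KO ranked higher in 4 of the 7 and lower in 3. The share over all regions was not computed for that ranking, so the 7 cannot be set against it.

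Width calls after adjustment in limma numbered 0 under every alternative that kept all 4 libraries, over all regions and over members. As planted changes mostly failed this adjustment, these counts could hardly differ and do not show stability. The median log2 width difference of members was 0.04 over all libraries and ran from -0.08 to 0.12 with a library left out, so its sign was not stable. The SD of the members' library medians was 0.15. It comes from the same regions and libraries, so it is no separate measure of stability. At the C5ar1 start the log2 difference ran from 0.59 to 0.69 with a library left out, with adjusted p of 0.700 to 0.857. With the weakest 25% removed it could not be fitted. At C3, 8060 bp from the start, it was -0.08 without WT replicate 1 and -2.28 without WT replicate 2, and near C1qb 0.37 without WT replicate 2 and 1.47 without WT replicate 1. Replicate numbers are not said to mark a shared batch, and same-numbered libraries deviated together with a correlation of 0.01. With the replicate block 0 regions were called after adjustment, and the smallest member adjusted p was 0.932. The unknown depth limits all absences: a missing peak is not closed chromatin.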
